A study of Drosophila melanogaster with 18 samples.

Results

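The cytosolic ribosomal protein genes of Drosophila melanogaster were described in RNA-seq libraries of pupal wings. Members were all genes whose FlyBase symbol is RpL, RpS or RpLP followed by a digit and that had at least 30 counts summed over 18 libraries. The rule gave 82 members among 13731 genes with values: 44 RpL genes named for the large subunit, 34 RpS genes named for the small subunit and 4 RpLP genes named for the stalk. Of the 92 annotated symbols that fit the pattern, 4 (RpS10a, RpL37-2, RpL10Aa and RpS28a) had fewer counts and 6 (RpL19, RpL27A, RpL31, RpL7-like, RpS10b and RpS12) were not analysed here. The filter on low counts passed 81 members, all but RpS28-like. They lie on chromosomes 3R (20 genes), 2R (18), 2L (17), 3L (13) and X (13), with RpS3A alone on chromosome 4.

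The cytosolic ribosome is built from ribosomal RNA and roughly equimolar ribosomal proteins, so most of these genes are transcribed strongly in nearly every cell. Ribosome assembly takes place in the nucleolus and needs a separate set of assembly factors, many of which are activated by the growth regulator Myc in flies. Flies also carry duplicated ribosomal protein genes, several of which are known to be used mainly in the germline.

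Wings of pupae were collected at 24 h and 44 h after puparium formation, with 3 libraries per group and at least 40 wings in each. Controls carried the rotund driver rn-Gal4 alone. The groups called E93RNAi also carried UAS-E93RNAi, and those called E93RNAi+brRNAi carried UAS-brRNAi and UAS-E93RNAi. All groups thus share rn-Gal4, which acts in the rotund domain, whereas whole wings were collected, and no group with UAS-brRNAi alone was analysed here. E93 (Eip93F) is an ecdysone-response factor of adult development and broad (br) encodes factors of the pupal stage. By its design the study asks which E93-dependent changes pass through br. Whether the libraries of each group stem from separate crosses is not stated. The p-values here thus set differences only against the spread among these libraries, and that spread may be technical.

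Library totals ran from 17627937 to 22940404 counts, and 9672 genes were tested. Levels are counts relative to library size (CPM), scaled by the trimmed mean of M values (TMM), given with SD over 3 libraries, and a gene was called at an adjusted p under 0.05 in edgeR's quasi-likelihood test. Eip93F transcript was no lower with E93RNAi at 24 h, at 2066 ± 193 CPM against 2077 ± 51.7 CPM in controls, while br was at 95.1 ± 10.9 CPM against 14.8 ± 1.96 CPM and at 17.9 ± 4.09 CPM with E93RNAi+brRNAi. With both transgenes Eip93F was higher at 24 h (0.19, adjusted p = 0.0213) and lower at 44 h (-0.57, 1.52e-07), and its 44 h means were 1285 CPM in controls, 1156 CPM in E93RNAi and 867 CPM in E93RNAi+brRNAi. A counted transcript need not report on the protein, and directions below belong to the libraries as labelled. Dcr-2, looked up after its values were seen, was at 5549 ± 424 CPM in E93RNAi at 24 h, 237 ± 22.1 CPM in controls and 140.5 ± 10.7 CPM in E93RNAi+brRNAi, and at 44 h at 2201, 63.0 and 52.4 CPM. The labels name no Dcr-2 transgene, and the part of Dcr-2 in any difference below was not tested. The wing genes nub, vg, sd, rn and bs were detected in every group, with summed levels of 964 to 1740 CPM per library.

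Ribosomal protein transcripts took up 7.92% to 11.3% of each library, and most members stood at similar levels. On the RPKM scale, which divides by transcript length, 33 members lay between 1000 and 2000 and another 33 between 2000 and 3000 as means over the 18 libraries. The 5 highest were RpL41 at 6020, RpL15 at 3350, RpL39 at 3280, and RpL10 and RpS27A at 3030 RPKM. RpL41 encodes the smallest protein of the ribosome, and RpS27A is made as a fusion with ubiquitin. In controls at 24 h RpL41 stood at 6640 ± 428 RPKM and RpL15 at 3460 ± 48.3 RPKM, a gap beyond their SDs, whereas RpL15, RpL39 (3370 ± 130), RpL10 (3450 ± 144) and RpS27A (3310 ± 125) differed from one another by less than the sum of their SDs.

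The lowest members were nearly all second copies or relatives by symbol of another member. RpS5b was at 0.484, RpL22-like at 0.508, RpS28-like at 0.864 and RpS19b at 1.66 RPKM, followed by RpLP0-like at 27.8 and RpS15Ab at 59.7 RPKM. Each low copy stood far under its partner on the same scale: RpS19b never exceeded 0.181% of RpS19a in a library, RpL22-like never exceeded 0.0561% of RpL22, and RpS5b never exceeded 0.0611% of RpS5a. RpS28-like likewise stayed at or under 0.0846% of RpS28b. Other copies were substantial, with RpL34a at 19.3% to 29.0% of RpL34b and RpS14b at 35.0% to 43.5% of RpS14a. The related gene RpL24-like was at 7.8% to 10.7% of RpL24. RpS14a and RpS14b, like RpS15Aa and RpS15Ab, are near-identical, and the length behind their RPKM was only 24.8% to 77.9% of their shortest annotated transcript, so reads may be split or dropped between the copies and their ratios are uncertain.

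At 24 h the summed share of counts fell outside the control range with E93RNAi alone. Controls stood at 11.2%, 10.7% and 11.0%, and E93RNAi libraries at 10.1%, 10.5% and 7.92%. E93RNAi+brRNAi libraries stood at 10.8%, 10.6% and 11.3%. All 3 E93RNAi libraries lay below all controls and below all E93RNAi+brRNAi libraries, which overlapped the controls, and replicate 3 of E93RNAi stood apart from its group. The difference of E93RNAi from control was -1.49 percentage points, or -0.714 without that replicate. The exact two-sided permutation test gave p = 0.1, the smallest p that 3 against 3 libraries allow, and over the 9 comparisons of this kind no share could reach 0.05.

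**Figure D1:**
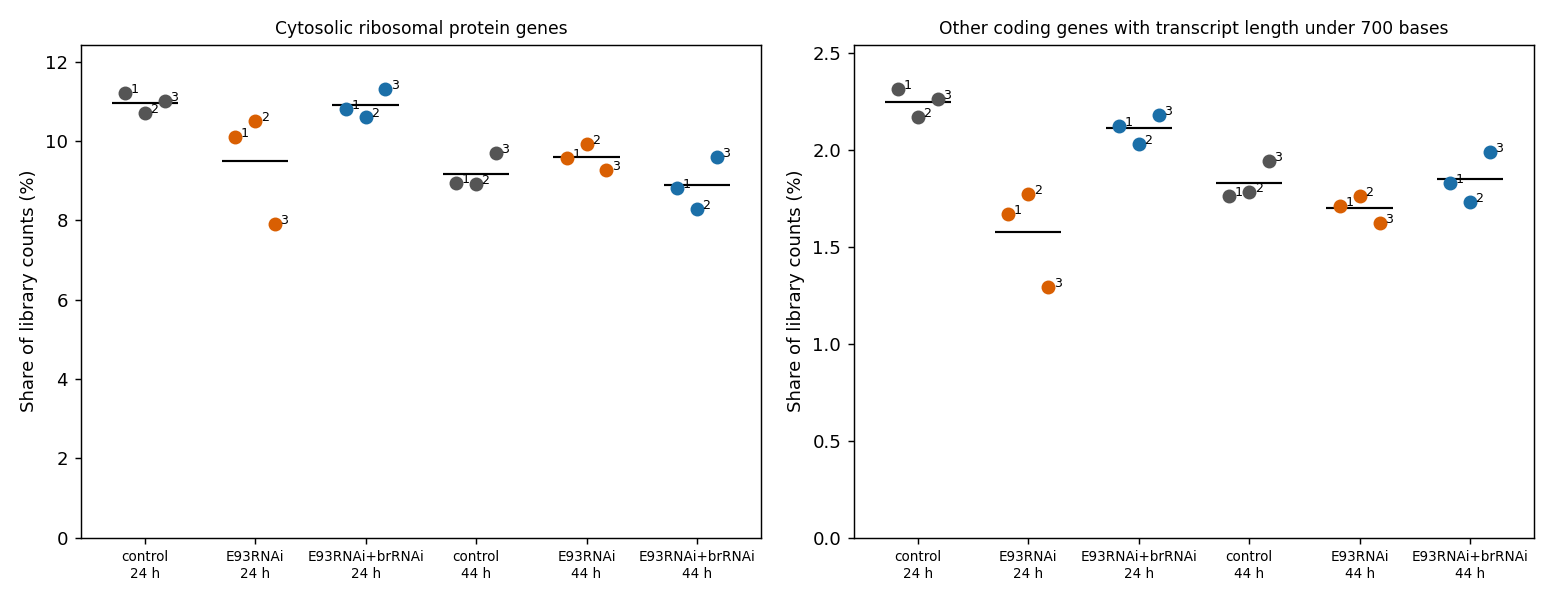
Share of each library's counts (percent, axis from 0) in the cytosolic ribosomal protein genes (left) and in 557 other protein-coding genes with transcripts under 700 bases (right), by group. Points are libraries with their replicate number and lines are group means. Replicate 3 of E93RNAi at 24 h is lowest in both panels, at 7.92% and 1.29%.

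Single genes followed the same order at 24 h. In E93RNAi against control, 54 of 81 members fell and 1 rose, where 22.2% of all tested genes were called lower and 21.7% higher. The median log2 fold change of the members was -0.26, beside 0.00 for all genes. Large subunit genes (31 of 44 fell) and small subunit genes (21 of 33 fell) had medians of -0.28 and -0.26. Of the stalk proteins, which recruit elongation factors, RpLP1 fell from 1365 ± 39 to 1130 ± 159 CPM (-0.27 ± 0.08, adjusted p = 0.009) and RpLP2 from 1349 ± 44.7 to 1091 ± 215 CPM (-0.30 ± 0.10, 0.0153), while RpLP0 was at -0.08 ± 0.06. The ubiquitin fusions RpL40 and RpS27A changed by -0.28 ± 0.08 (0.0086) and -0.25 ± 0.09 (0.0214). In 58 members every E93RNAi library was below every control library, as in 27.0% of all tested genes. In bulk wings, fewer cells of a type and less RNA per cell cannot be told apart.

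The largest called falls were in genes of very small proteins. RpL38, a large subunit protein, stood at 924, 837 and 904 CPM in controls, 650, 770 and 318 CPM in E93RNAi, and 832, 810 and 887 CPM in E93RNAi+brRNAi. RpL39, a protein near the exit tunnel, stood at 742, 731 and 788 CPM in controls, 576, 593 and 314 CPM in E93RNAi, and 815, 771 and 852 CPM in E93RNAi+brRNAi. Both genes were below the other groups in all 3 E93RNAi libraries, and replicate 3 was lowest. The log2 fold changes against control were -0.62 ± 0.18 for RpL38 (edgeR adjusted p = 0.0101), -0.61 ± 0.15 for RpL39 (0.0024) -0.57 ± 0.14 for RpL29 (0.00237). RpL29, also a large subunit protein, was at 589, 575 and 587 CPM in controls and at 481, 446 and 256 CPM in E93RNAi, without overlap. With length adjusted for, RpL38 (-0.25) and RpL29 (-0.15) were no longer called, and with replicate 3 also left out the values were -0.05 for RpL38, -0.06 for RpL39 and -0.04 for RpL29, none called. RpL38 was also not called with only the groups compared. RpL41, the highest member, missed the threshold at -0.49 ± 0.20 (0.0536), with 1319, 1657 and 630.5 CPM against 1719, 1567 and 1765 CPM in controls. RpL4, with one of the longest member transcripts, was at 2149, 2220 and 2069 CPM against 2223, 2180 and 2255 CPM, with a log2 fold change of -0.05 ± 0.05.

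The size of the fall followed transcript length. For 68 members an annotated transcript matched the length behind the deposited RPKM. In E93RNAi against control at 24 h, 6 of 7 members under 500 bases fell, with a median log2 fold change of -0.49. From 500 to 700 bases 24 of 28 fell (median -0.31), from 700 to 1000 bases 15 of 23 fell (median -0.20), and from 1000 bases upward 2 of 10 fell (median -0.13). Across these 68 genes, which share libraries and are not independent, Pearson's r between log2 fold change and log2 length was 0.76, against -0.20 for E93RNAi+brRNAi against control at 24 h and -0.10 for E93RNAi against control at 44 h.

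**Figure D2:**
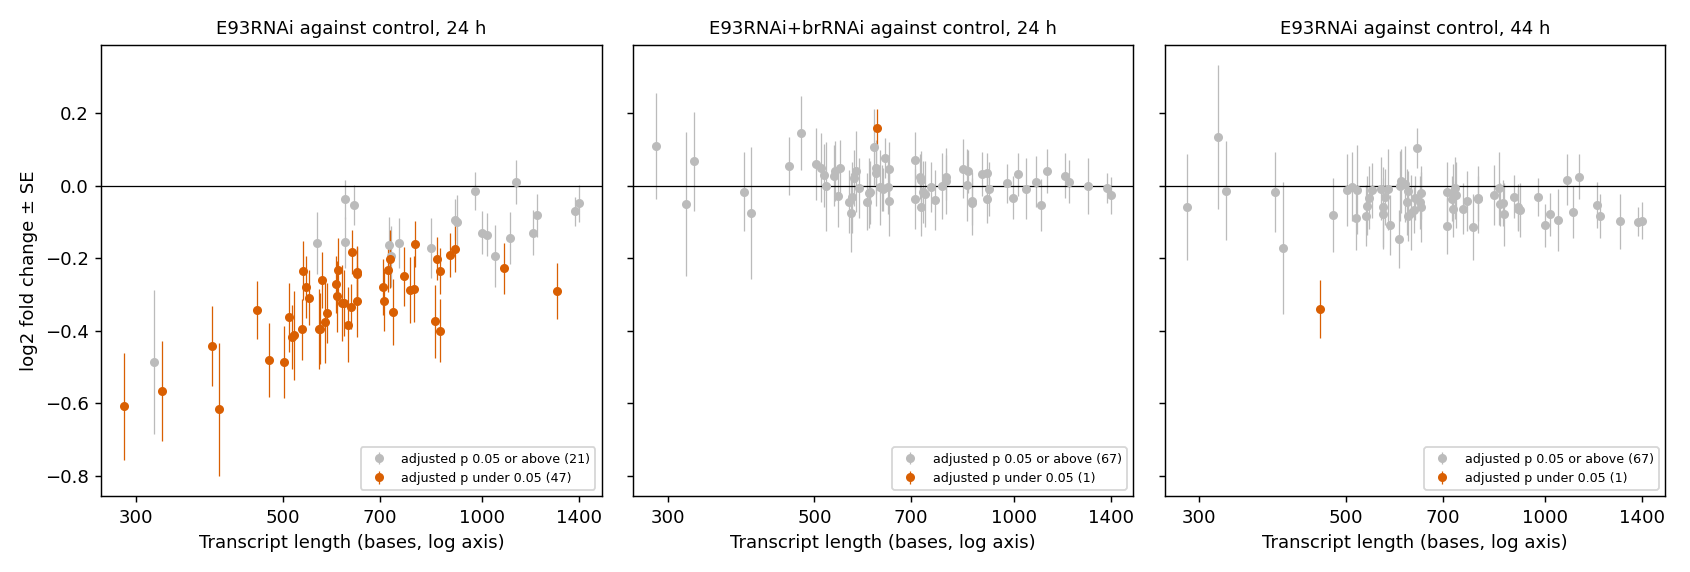
Log2 fold change ± SE (from edgeR) of 68 ribosomal protein genes against transcript length in bases (log axis), for 3 comparisons. Members called at an adjusted p under 0.05 are orange, and those not called are grey. The points rise with length in E93RNAi against control at 24 h only among the panels shown, where r is 0.76 against -0.20 and -0.10.

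Other short transcripts were low in the same libraries. Outside the members, 557 protein-coding genes with transcripts under 700 bases took 2.31%, 2.17% and 2.26% of counts in controls at 24 h, 1.67%, 1.77% and 1.29% in E93RNAi, and 2.12%, 2.03% and 2.18% in E93RNAi+brRNAi. The 2233 genes over 3000 bases took 27.9% to 29.0% in controls, 31.2% to 34.9% in E93RNAi and 27.7% to 29.4% in E93RNAi+brRNAi. Short genes were thus lower and long genes higher in all 3 E93RNAi libraries at 24 h, without overlap. When a smooth trend on length was taken out of each library, the 54 falls became 9 and the single rise became 12, with a member median of -0.01. In that fit 3832 of 9672 genes were called in either direction. The majority call in this comparison therefore ends once length is adjusted for. What lies behind the trend with length was not tested.

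Replicate 3 of E93RNAi at 24 h carried part of the difference. All 68 length-matched members were lower in it than in the mean of the other pair, by a median of -0.39 and a range of -1.24 to -0.02 on the log2 scale, with an r of 0.73 with length. Without it, 31 members fell and 1 rose (18.1% and 16.8% of all genes), and the median was -0.15. Members under 500 bases still had the lowest median, at -0.31 against -0.07 from 1000 bases upward. With replicate 3 left out and length adjusted for, 3 fell and 16 rose, where 3271 of 9672 genes were called in either direction.

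With both RNAi transgenes at 24 h few members passed the test against control. E93RNAi+brRNAi against control called 2 members higher and none lower, where 14.7% of all genes were called higher and 15.8% lower, and the member median was -0.00. RpL35A rose by 0.16 ± 0.05 on the log2 scale (adjusted p = 0.0316), from 764, 759 and 753 CPM to 832, 828 and 880 CPM, and the call was lost when any of the control libraries was left out, with length adjusted for or without replicate 3 of E93RNAi+brRNAi. Against E93RNAi, 52 members were higher and 1 lower (20.2% and 21.1% of all genes), with a median of 0.25. This comparison shares the E93RNAi libraries with the first, so the pair are not independent. RpL39 was 0.72 ± 0.15 higher (adjusted p = 0.000659) and RpL29 0.63 ± 0.14 higher (0.00102). Without replicate 3 of E93RNAi 34 members were higher and 1 lower, where 16.5% and 15.3% of all genes were called. Without replicate 3 of E93RNAi+brRNAi 34 were also higher, in a fit whose share of all genes is not given here. With length adjusted for, 8 were higher and 23 lower, where 3315 of 9672 genes were called in either direction.

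RpLP0-like went against the other members. It is the fly counterpart of yeast Mrt4, an assembly factor that holds the place of the stalk protein P0 in the precursor of the large subunit, and is no part of the mature ribosome. Its gene lies at 10098518 to 10099590 of chromosome 2R (dm6). It stood at 25.7, 22.0 and 24.7 CPM in controls, 34.7, 34.7 and 32.3 CPM in E93RNAi, and 27.6, 27.2 and 27.0 CPM in E93RNAi+brRNAi at 24 h. Every E93RNAi library was above every library of the other groups, replicate 3 included. The log2 fold change was 0.49 ± 0.06 against control (adjusted p = 3.82e-06) and E93RNAi+brRNAi stood -0.31 ± 0.06 from E93RNAi (0.000473). Under 15 alternative settings the first ranged from 0.43 to 0.64 and stayed called. The excess of E93RNAi+brRNAi over control, 0.18 ± 0.06 (0.0413), was lost in 10 of 14 settings. RpL24-like, whose yeast counterpart Rlp24 is also an assembly factor, was not called, at -0.05 ± 0.08 (adjusted p = 0.609).

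Ribosome assembly factors as a list rose at 24 h with E93RNAi, opposite in sign to the ribosomal protein genes. Of 26 tested factors 21 rose and none fell, where 21.7% of all genes were called higher and 22.2% lower. Their median log2 fold change was 0.41, beside 0.00 for all genes. Nop56, a core protein of the box C/D particles that guide ribosomal RNA methylation, stood at 71.9, 68.2 and 72.3 CPM in controls, 110, 102 and 103 CPM in E93RNAi, and 77.6, 73.2 and 75.8 CPM in E93RNAi+brRNAi. Its partner nop5 stood at 59.0, 60.2 and 61.2 CPM, 90.7, 99.3 and 91.5 CPM, and 66.7, 60.8 and 66.2 CPM. In both genes the E93RNAi libraries lay above the rest without overlap. The changes against control were 0.57 ± 0.05 (adjusted p = 2.84e-08) and 0.64 ± 0.06 (3.05e-08).

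The assembly factors stood nearer to control with both transgenes. In E93RNAi+brRNAi against E93RNAi 19 of 26 were lower and 1 higher, where 21.1% and 20.2% of all genes were called. Against control 1 rose (pit, a helicase) and 1 fell (Non1, a GTPase), where 14.7% and 15.8% of all genes were called. Over 15 settings, among them the length adjustment and leaving out replicate 3, the rises in E93RNAi against control numbered 19 to 21 and the falls 0 to 1. RNA polymerase I and III genes showed 6 rises and 1 fall among 17 in E93RNAi against control, beside 21.7% and 22.2% of all genes. Their median log2 fold change was only 0.07. The pair of large RNA polymerase I subunits led them: Polr1A went from 41.7 ± 1.8 to 68.6 ± 4.05 CPM (0.72 ± 0.06, adjusted p = 5.67e-09) and Polr1B from 22.1 ± 0.244 to 37.2 ± 1.1 CPM (0.75 ± 0.08, 2.13e-07). Myc, the growth regulator, stood at 23.2, 27.3 and 26.9 CPM in controls, 72.7, 67.6 and 86.5 CPM in E93RNAi, and 35.2, 31.2 and 26.6 CPM in E93RNAi+brRNAi. It was 1.55 ± 0.11 higher with E93RNAi (1.09e-09) and lower again with both transgenes, at -1.28 ± 0.11 from E93RNAi (1.37e-08). Among 16 regulators of ribosome supply, Myc included, 4 rose and 4 fell, beside 21.7% and 22.2% of all genes. Translation initiation factors gave 4 rises and 14 falls among 32, or 10 falls without replicate 3, and elongation and release factors 3 rises and 3 falls among 8. At 44 h 3 assembly factors rose and 1 fell in E93RNAi against control (20.6% and 18.9% of all genes), 4 rose and 2 fell in E93RNAi+brRNAi against control (23% and 22.6%), and 3 were higher and 4 lower between the RNAi groups (24.9% and 23.9%). Library totals in place of TMM raised the first to 14 rises and the last to 15 falls, while the median of all genes moved to 0.12 and -0.20. In these fits 4508 and 5921 of 9672 genes were called in either direction.

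**Figure D3:**
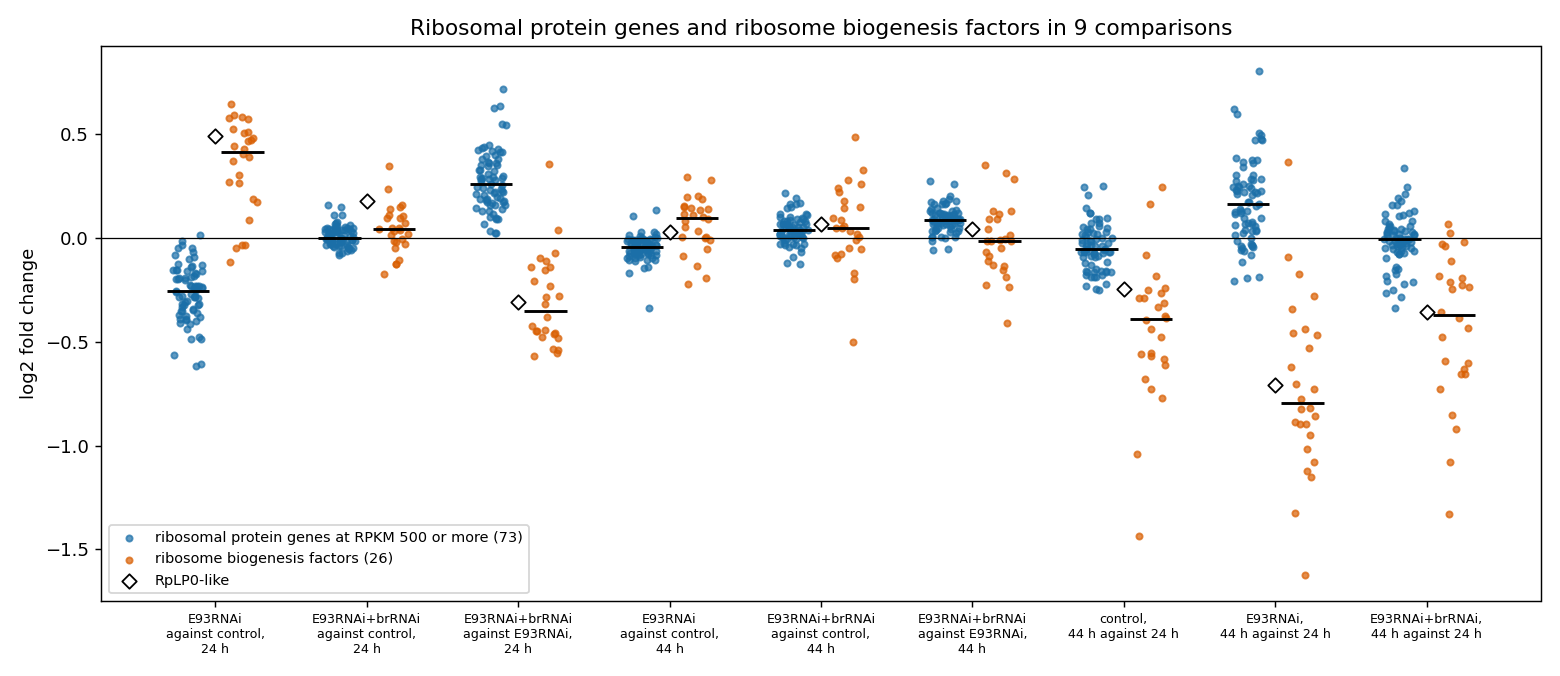
Log2 fold changes from edgeR of 73 ribosomal protein genes with a mean of at least 500 RPKM (blue), 26 ribosome assembly factors (orange) and RpLP0-like (diamond) in 9 comparisons. Points are genes and bars are medians. In E93RNAi against control at 24 h the assembly factors have a median of 0.41 and RpLP0-like lies at 0.49, while all plotted ribosomal protein genes but RpL7A lie below 0.

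Mitochondrial ribosomal protein genes, whose products work in the organelle, showed the same direction as the cytosolic ones at 24 h: 30 of 71 fell and none rose with E93RNAi (median -0.23), where 22.2% of all genes were called lower. Without replicate 3 only 12 fell, a share no higher than the 18.1% of all genes. Markers of other cell types also moved. The summed level of 8 muscle markers was 127 to 146 CPM in controls, 184 to 190 CPM in E93RNAi and 74.3 to 81.8 CPM in E93RNAi+brRNAi, and that of 7 fat body markers was 513 to 583, 688 to 711 and 518 to 551 CPM. Both sums were highest in E93RNAi without overlap, but single markers went different ways. Among muscle markers Mhc had means of 34.1 CPM in E93RNAi and 1.05 CPM in controls, and Act57B 22.1 and 42.8 CPM. Among fat body markers Fbp1 stood at 144 and 70.0 CPM in that order, and Lsp2 at 255 and 276 CPM. The part of these markers in the results was not tested. The gene sta, which encodes a small subunit protein under a symbol outside the pattern, stood at 2362 ± 32.3 CPM in controls and 2276 ± 173 CPM in E93RNAi and passed the threshold in no comparison.

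At 44 h the genotype groups hardly differed in ribosomal protein genes. E93RNAi against control called 1 member higher and 1 lower, where 20.6% and 18.9% of all genes were called, and the member median was -0.05. E93RNAi+brRNAi against control called 2 higher and none lower (23% and 22.6% of all genes). E93RNAi+brRNAi against E93RNAi called 2 higher and none lower (24.9% and 23.9%). The rises besides RpS19b, described below, were small: RpS26, a small subunit protein, was 0.17 ± 0.05 higher with both transgenes than in control (adjusted p = 0.0173), and RpS14a was 0.26 ± 0.10 higher than in E93RNAi (0.0327). RpS14a stood at 422, 444 and 553 CPM in E93RNAi+brRNAi and at 403, 401 and 382 CPM in E93RNAi, and its near-identical copy makes the value uncertain. The RpS26 call was lost in 4 of 14 settings (0.02 with length adjusted for) and that of RpS14a in 6 of 14 (0.06 with length adjusted for). Without replicate 3 of E93RNAi+brRNAi at 44 h, which stood apart from its group with chi-square per degree of freedom of 22.8 and 24.4 against the others, they were 0.11 and 0.14, neither called. Shares of counts overlapped between the groups, at 8.93%, 8.92% and 9.69% in controls, 9.57%, 9.93% and 9.26% in E93RNAi and 8.81%, 8.29% and 9.61% in E93RNAi+brRNAi. The length adjustment changed the counts at this time too. In E93RNAi+brRNAi against control 38 were then lower and 1 higher, where 4772 of 9672 genes were called in either direction. Against E93RNAi 22 were lower and none higher, where 5095 of 9672 genes were called.

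RpL36A, a large subunit protein, was the member that fell at 44 h with E93RNAi. It stood at 1059, 1041 and 1118 CPM in controls, 810, 882 and 849 CPM in E93RNAi, and 1013, 962 and 1095 CPM in E93RNAi+brRNAi. The E93RNAi libraries lay below both other groups. The log2 fold change was -0.34 ± 0.08 against control (adjusted p = 0.00169) and stayed called in all 14 settings, with a range of -0.37 to -0.23. E93RNAi+brRNAi was 0.27 ± 0.08 above E93RNAi (0.00786), a call lost in 2 of 14 settings, at 0.05 with length adjusted for and 0.09 with library totals. At 24 h RpL36A also fell by 0.34 ± 0.08 on the log2 scale (adjusted p = 0.00185). The summed muscle markers at 44 h were at 211 to 266 CPM in controls, 72.1 to 102 CPM in E93RNAi and 259 to 356 CPM in E93RNAi+brRNAi, lowest in the same group, and their part in the RpL36A difference was not tested.

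RpS19b, a second copy of RpS19 known mainly from the germline, was at its lowest in control wings at 44 h. Its counts were 20, 24 and 22 in controls at 24 h and 4, 2 and 2 at 44 h. At 44 h they were 20, 21 and 21 in E93RNAi and 20, 13 and 23 in E93RNAi+brRNAi. All RNAi libraries at 44 h were above all controls of that time. The log2 fold change against control was 2.89 ± 0.47 for E93RNAi (adjusted p = 4.05e-05, interval 1.91 to 3.88) and 2.88 ± 0.48 for E93RNAi+brRNAi (4.61e-05, interval 1.88 to 3.88), which share the controls. Each stayed called in all 14 settings. The 2 RNAi groups differed by -0.01, with an interval of -0.68 to 0.66. At 24 h E93RNAi+brRNAi (37, 25 and 54 counts) was above E93RNAi (23, 25 and 13 counts) by 0.91 ± 0.28 (0.0153), a call lost without replicate 3 of either group and with length adjusted for. Over time RpS19b fell by 2.89 ± 0.47 on the log2 scale in controls (adjusted p = 1.18e-05), whereas its value was 0.27 ± 0.31 in E93RNAi (0.452) and -0.65 ± 0.29 in E93RNAi+brRNAi (0.0491), the last lost in 10 of 14 settings.

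Germline markers were at trace levels beside it. Of 5 listed, bam, bgcn and osk had values. At 24 h their sum per library was 2.52 to 2.79 CPM in controls, 4.96 to 5.39 CPM in E93RNAi and 2.27 to 2.84 CPM in E93RNAi+brRNAi. At 44 h it was 0.549 to 1.27 CPM in controls, 1.05 to 1.92 CPM in E93RNAi and 0.835 to 1.5 CPM in E93RNAi+brRNAi. Single genes went different ways, with 44 h means in that order of 0.0369, 0.7 and 0.155 CPM for bam and 0.377, 0.133 and 0.235 CPM for osk. The part of these markers in the RpS19b difference was not tested.

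**Figure D4:**
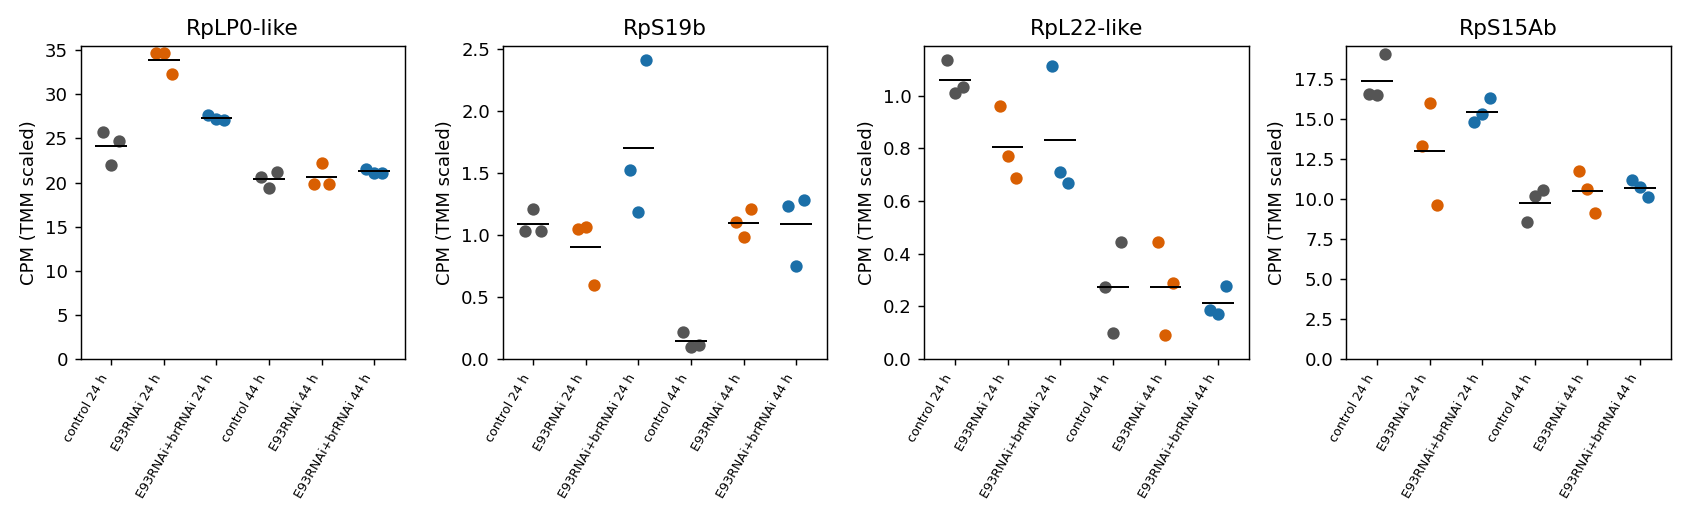
Levels in TMM-scaled CPM (axes from 0) of 4 low ribosomal protein genes in 18 libraries. Points are libraries and lines are group means. RpLP0-like is highest in E93RNAi at 24 h, RpS19b lowest in controls at 44 h, and RpL22-like and RpS15Ab are lower at 44 h than at 24 h in the mean of every genotype.

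Between 24 h and 44 h few ribosomal protein genes of controls were called without a length adjustment, while most assembly factors fell. In controls 2 members rose and 15 fell, where 37.1% and 38.1% of all genes were called, with a member median of -0.06. In E93RNAi+brRNAi 2 rose and 14 fell (37.8% and 38%). In E93RNAi 34 rose and 6 fell (38.1% and 36.4%), or 17 and 11 without replicate 3 at 24 h (36.6% and 35.3%), and 20 rose without replicate 2 at 44 h. Assembly factors fell in 23, 19 and 23 of 26 genes in the same order, and RNA polymerase I and III genes in 15, 12 and 13 of 17. Nop60B, the pseudouridine synthase of ribosomal RNA, went from 58.2 ± 2.29 to 21.5 ± 1.3 CPM in controls, a log2 fold change of -1.44 ± 0.06 (adjusted p = 1.84e-14). The time comparisons depend on length and on scaling. With length adjusted for, 30 members rose and 16 fell in controls, where 7563 of 9672 tested genes were called in either direction. With only the groups compared 9 rose and 28 fell, where 7444 genes were called. With library totals in place of TMM, the median of all genes moved to -0.22 in controls and -0.27 in E93RNAi+brRNAi. The member medians were then -0.27 and -0.29, and 59 and 61 members fell with none rising. In these fits 7546 and 7763 of 9672 genes were called in either direction. The share of counts went from 11.0% ± 0.273 to 9.18% ± 0.443 in controls, a difference of -1.8 percentage points that was -0.334 with the TMM library size.

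The members named over time included both low copies and genes at high levels. RpL22-like, a copy known from the male germline, had 22, 20 and 22 counts in controls at 24 h and 5, 2 and 8 at 44 h, a log2 fold change of -1.96 ± 0.42 (adjusted p = 0.000305), with -1.58 ± 0.44 in E93RNAi (0.00292) and -1.94 ± 0.47 in E93RNAi+brRNAi (0.000824). The groups of each time did not overlap within any genotype. RpS15Ab fell from 16.6, 16.5 and 19.0 CPM to 8.57, 10.2 and 10.6 CPM in controls (-0.83 ± 0.14, 1.55e-05) and by 0.53 ± 0.14 in E93RNAi+brRNAi (0.00156). RpL34a fell by 0.35 ± 0.08 in controls (0.000372) and by 0.24 ± 0.08 in E93RNAi+brRNAi (0.00882), whereas its partner RpL34b was at 933 ± 23.6 and 969 ± 27.2 CPM in controls. RpS15Ab and RpL34a were also lower with E93RNAi at 24 h, by -0.42 ± 0.13 (0.0133) and -0.27 ± 0.08 (0.00669) on the log2 scale. In that comparison 54 of 81 members fell, with a member median of -0.26, and the count of falls depended on length and replicate 3. RpL15, a large subunit protein, rose in controls by 0.20 ± 0.08 (0.0221) and RpL36A by 0.24 ± 0.08 (0.0102), and neither was called with library totals. In E93RNAi the largest rises were RpL39 (0.80 ± 0.15, 5.65e-05), RpL41 (0.62 ± 0.20, 0.00875) and RpL29 (0.59 ± 0.14, 0.000607), all with transcripts under 500 bases, and RpLP0-like fell by 0.71 ± 0.06 (3.27e-09). In E93RNAi+brRNAi the copies RpS14a (0.33 ± 0.10, 0.00393) and RpS14b (0.30 ± 0.12, 0.0274) rose, but neither was called with library totals and RpS14b lost its call in 4 of 14 settings, while RpLP0-like fell by 0.36 ± 0.07 (5.18e-05). The stalk gene RpLP0 fell by 0.19 ± 0.06 in controls (0.00679), by 0.19 ± 0.06 in E93RNAi (0.00659) and by 0.25 ± 0.06 in E93RNAi+brRNAi (0.000709), on the log2 scale.

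The change of the genotype effect with time was tested directly. For E93RNAi against control, 16 members had a higher log2 fold change at 44 h than at 24 h and 1 a lower (19.9% and 18% of all genes), shares of the members at or under those of all genes. With length adjusted for, this turned to 1 higher and 16 lower, where 3666 of 9672 genes were called in either direction. For E93RNAi+brRNAi against E93RNAi 1 was higher and 8 lower (17.5% and 16%), or 6 and 10 with length adjusted for. For E93RNAi+brRNAi against control RpS19b alone was higher and none lower (20% and 18.5%), or 1 and 16 with length adjusted for. Without replicate 3 of E93RNAi at 24 h, the counts of the first were 6 and 1 (18.3% and 15.4% of all genes). Over all libraries left out in turn its higher count ran from 2 to 43.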

How the data were processed

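Poly(A) RNA of pupal wings was made into libraries that keep strand and read in single short reads, per the labels' protocols. The authors deposited raw counts per gene and RPKM values for each of 18 libraries. The build is dm6, per the submitters' processing notes, and for the aligner, the counting tool and its strand setting none is given in the sources used here, so reads of overlapping antisense genes may be shared. Of 14489 listed genes 758 had no value. Symbols, coordinates and transcript lengths came from an Ensembl annotation of the same build.

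Counts were tested with edgeR 4.0.16 (R 4.3.3): TMM scaling, filterByExpr, 1 mean per group over all libraries, the quasi-likelihood test and Benjamini-Hochberg adjustment over 9672 genes at 0.05. Errors of fold changes are SE from the fit, and intervals are at 95%. RPKM was used as deposited, for levels only. The common biological coefficient of variation was 6%. The steps were tested on simulated data. No pair of replicate libraries agreed within counting noise, with chi-square per degree of freedom from 2.77 to 25.5. Shares were compared by exact permutation tests (scipy 1.17.1).

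Named members were the extremes of level, up to 3 called rises and falls per comparison, members against the majority, copies, and the 2 list genes with the smallest p per comparison. Some further genes named for context (RpL4, RpLP0 to RpLP2, RpL40, RpS27A, RpL7A, Non1) were chosen after their values were seen. The members and lists were chosen with earlier results of these data known. RACK1 and 6 member symbols were not analysed here. Alternatives were RLE scaling (edgeR), scaling without members, library totals, no filter, a replicate block, a length offset, only the groups compared, DESeq2 1.42.0 and each library left out.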

Additional observations from a re-analysis of the deposited data

Results flagged for a closer look

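The difference between genotypes changed from 24 h to 44 h in some members, by edgeR's interaction term with Benjamini-Hochberg adjustment over all tested genes. For E93RNAi against control, 16 of 81 members had a higher log2 fold change at 44 h than at 24 h and 1 a lower one, where 19.9% and 18% of all genes were called, so the members' shares were no higher than the background. The member median was -0.26 at 24 h and -0.05 at 44 h. RpS19b led the former, with a difference of 3.15 ± 0.58 on the log2 scale (adjusted p = 0.00023), and RpS29 was among them at 0.47 ± 0.14 (0.0123). RpS29, a small subunit protein, was at 1293, 1312 and 1341 CPM in control wings of 24 h, against 1106, 1002 and 709.7 CPM with E93RNAi. At 44 h the libraries held 1296, 1319 and 1408 CPM in controls and 1317, 1367 and 1306 CPM with E93RNAi. RpLP0-like was the member with the lower value, at -0.46 ± 0.09 (0.000562). With length adjusted for, the counts turned to 1 higher and 16 lower, and RpS29 was at 0.16, not called. The 16 became 6 without replicate 3 of E93RNAi at 24 h, 43 without replicate 2 of that group, and 2 to 7 without any 1 library of the controls at 24 h, of E93RNAi at 44 h, or replicates 1 and 2 of the controls at 44 h.

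For E93RNAi+brRNAi against control 1 member, RpS19b, had a higher value at 44 h, at 2.24 ± 0.58 (0.00429), where 20% of all genes were called, and 16 were lower with length adjusted for. For E93RNAi+brRNAi against E93RNAi 1 member, RpLP0-like, had a higher value at 44 h, at 0.35 ± 0.09 (0.00595), and 8 had a lower one (17.5% and 16% of all genes), among them RpS13 at -0.30 ± 0.09 (0.0137) and RpL34b at -0.32 ± 0.10 (0.0139). With length adjusted for, 6 were higher and 10 lower. Without replicate 3 of E93RNAi at 24 h the 8 became 6, and over all libraries left out in turn they ran from 0 (without replicate 2 of E93RNAi+brRNAi at 44 h) to 27 (without replicate 2 of E93RNAi at 24 h). The part of other cell type markers in these differences was not tested.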

How the results depend on the processing

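Of 608 values for 39 named pairs of gene and comparison, 543 kept their direction and side of the threshold, 64 lost the call and 1 reversed (RpL15 over time in controls, -0.007 with library totals). The counts of called members depended most on length and on scaling. With the length offset, members rose and fell as follows. At 24 h E93RNAi against control gave 12 and 9, E93RNAi+brRNAi against control 0 and 4, and against E93RNAi 8 and 23. At 44 h these were 3 and 12, 1 and 38, and 0 and 22. Over time 30 rose and 16 fell in controls. In E93RNAi 26 fell and in E93RNAi+brRNAi 16 rose, but members were called in both directions, with member medians of 0.002 and -0.004. By length class among the 68 length-matched members, rises and falls in E93RNAi were 6 and 0 under 500 bases and 11 and 9 from 500 to 700. They were 3 and 8 from 700 to 1000 bases and 2 and 5 from 1000 upward. In E93RNAi+brRNAi the same classes gave 2 and 0, 7 and 5, 3 and 7, and 1 and 4. The interactions gave 1 and 16, 1 and 16, and 6 higher beside the lower ones given above. Over these comparisons 3315 to 7573 of 9672 genes were called in either direction. With replicate 3 of E93RNAi at 24 h also left out, chosen after seeing the data, E93RNAi against control gave 16 and 3, E93RNAi+brRNAi against E93RNAi 4 and 28, E93RNAi over time 18 and 26, and the interactions 1 and 19, and 9 higher.

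With library totals in place of TMM, also chosen after seeing the data, 1 member rose in E93RNAi+brRNAi against control at 24 h. At 44 h 2 rose in E93RNAi against control, 1 rose and 2 fell in E93RNAi+brRNAi against control, and 0 rose and 9 fell against E93RNAi. Over time 0 rose and 59 fell in controls, 12 rose and 15 fell in E93RNAi, and 0 rose and 61 fell in E93RNAi+brRNAi, and the interactions of E93RNAi with control and of E93RNAi+brRNAi with E93RNAi gave 41 higher, and 0 higher and 45 lower. That scaling shifted the median of all genes by over 0.1 in some comparisons: 0.12 (E93RNAi against control) and -0.20 (E93RNAi+brRNAi against E93RNAi) at 44 h, and -0.22, -0.10 and -0.27 over time. Over its comparisons 2951 to 7763 of 9672 genes were called in either direction.

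With only the groups compared, E93RNAi against control at 24 h had 34 falls and at 44 h 8, E93RNAi+brRNAi against control at 24 h had 5 rises, controls over time had 9 rises and 28 falls, E93RNAi+brRNAi over time had 4 rises, and the last interaction had 0 lower. RLE scaling and DESeq2 each gave 2 falls in E93RNAi against control at 44 h, 1 fall in E93RNAi+brRNAi against control at 44 h and 6 rises in E93RNAi+brRNAi over time. DESeq2 also gave 1 rise in E93RNAi+brRNAi against control at 24 h and 1 member lower in its interaction. Without a filter there were 1 rise in E93RNAi+brRNAi against control at 24 h, 5 rises against E93RNAi at 44 h and 7 higher in the first interaction, and scaling without the members gave 10 there. The replicate block gave 1 rise in E93RNAi+brRNAi against control at 24 h and 7 higher in the first interaction. Correlations of same-numbered libraries ran from -0.12 to 0.09, so the numbers were not treated as a pairing.

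Leaving out 1 library at a time, falls in E93RNAi against control at 24 h ran from 31 to 64, and rises in E93RNAi+brRNAi from 0 to 2 against control and 34 to 68 against E93RNAi. At 44 h E93RNAi+brRNAi gave 1 to 5 rises and 0 to 1 falls against control, and 1 to 11 rises against E93RNAi. Over time rises ran from 1 to 2 in controls, 17 to 44 in E93RNAi (with 4 to 11 falls) and 1 to 7 in E93RNAi+brRNAi. The interactions ran from 2 to 43 higher and from 0 to 27 lower. Differences in ribosomal share (percentage points) ran from -0.247 to 0.0933 for E93RNAi+brRNAi against control at 24 h, including 0.000149 and 0.0803, from -0.626 to 0.0328 at 44 h, and from -0.674 to 0.593 for E93RNAi over time, including -0.063. With the TMM library size the sign of the share difference turned in E93RNAi+brRNAi against control (0.0443 at 24 h and 0.21 at 44 h), in E93RNAi against control at 44 h (-0.338) and in E93RNAi+brRNAi against E93RNAi at 44 h (0.548). The causes were not tested. The low copies rest on few counts, under 60 per library for RpS19b, so small differences in them were not detectable.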

Other observations

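Some regulators of ribosome supply and of translation had large differences at 44 h. They are single genes: in E93RNAi+brRNAi against control 4 of 16 regulators of ribosome supply rose and 6 fell, and 5 of 32 initiation factors rose and 8 fell, where 23% and 22.6% of all genes were called. Thor, the fly 4E-BP, which binds eIF4E and holds back cap-dependent translation, stood at 3.35, 3.19 and 2.82 CPM in controls, 4.37, 3.93 and 2.88 CPM in E93RNAi, and 24.4, 30.3 and 21.8 CPM in E93RNAi+brRNAi. The last group lay above both others, with a log2 fold change of 3.03 ± 0.16 against control (edgeR adjusted p = 2.58e-12). Xrp1, a bZIP factor known to respond to loss of ribosomal protein gene copies in flies, stood at 307, 296 and 312 CPM in controls, 299, 288 and 309 CPM in E93RNAi, and 534, 580 and 554 CPM in E93RNAi+brRNAi, a change of 0.87 ± 0.06 against control (5.5e-11). Irbp18, its partner, looked up after its values were seen, went from 13.3, 13.8 and 11.9 CPM to 18.9, 19.9 and 19.7 CPM. The initiation factor gene eIF3j went from 81.8, 85.0 and 81.2 CPM to 118, 119 and 137 CPM (0.60 ± 0.06, 5.4e-08).

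At 24 h eEF1alpha2, a second gene for the elongation factor that delivers aminoacyl-tRNA, stood at 74.2, 56.8 and 55.1 CPM in controls and 152, 140 and 148 CPM in E93RNAi, a log2 fold change of 1.25 ± 0.09 (edgeR adjusted p = 1.59e-09). It also rose over time, by 1.56 on the log2 scale in controls and by 1.00 in E93RNAi+brRNAi. In E93RNAi its means were 147 CPM at 24 h and 137 CPM at 44 h. At 44 h it was lower in E93RNAi than in controls, by -0.415 on the log2 scale, and stayed called in all 14 settings.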
